A study of Homo sapiens with 8 samples.

Results

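MV-3 cells, derived from melanoma, were compared with ES-2 cells, derived from ovarian cancer, by small RNA-seq of mature microRNAs (miRNAs). Members of the comparison were taken from the sample labels: 2 libraries of MV-3 and 2 libraries of ES-2, 4 of the 8 libraries of the study. The other 4 came from Huh-7 liver and A-549 lung carcinoma cells and entered the estimate of the spread between replicates, and single values of theirs are given for reference. All lines were human tumor-derived parental lines, grown in DMEM with serum and harvested 48 hours after seeding without any agent or genetic change, so each line is a model of 1 tumor and not of its tumor type. Line and tumor of origin cannot be told apart in this design. The comparison asked which miRNA families and genomic clusters differ between the lines, and which of their abundant miRNAs are at equal level.

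A miRNA is cut from a hairpin in a longer transcript, and each hairpin can give a mature miRNA from its 5′ arm (5p) and from its 3′ arm (3p). Mature miRNAs guide Argonaute proteins to mRNAs, mainly through the seed, bases 2 to 8 from the 5′ end, and miRNAs that share a seed are grouped as a family with largely shared targets. Hairpins that lie close together are often cut from the same transcript and form a cluster. Several families have members in paralogous clusters on different chromosomes, so that near-identical miRNAs can be made from separate genes.

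The sequences below are those on which the comparison turns, as given by RefSeq for the human genome, 5′ to 3′, with the seed in capitals. Of 2588 miRNA names in the table, 2281 had such a sequence. The following 3 miRNAs mark the differences between the lines, and miR-452-5p comes from the same cluster as miR-224-5p.
miR-143-3p: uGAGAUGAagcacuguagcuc
miR-142-3p: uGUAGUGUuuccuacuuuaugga
miR-224-5p: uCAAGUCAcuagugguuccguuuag
miR-452-5p: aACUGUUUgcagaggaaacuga

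Near-identical miRNAs of paralogous clusters are shown next because reads of most of them separate clusters on different chromosomes. Those with several copies do not, namely miR-24-3p (chromosomes 9 and 19), let-7a-5p (9, 11 and 22) and miR-125b-5p (11 and 21). A substitution names the base of the sequence given first, its position from the 5′ end and the base of the sequence it is compared with. miR-23a-3p and miR-23b-3p differ by U19A over the length they share, and miR-27a-3p and miR-27b-3p by C19U. let-7a-5p differs from let-7c-5p by A19G and from let-7e-5p by U9G, and miR-99a-5p differs from miR-100-5p by U16A.
miR-23a-3p: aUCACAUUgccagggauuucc
miR-23b-3p: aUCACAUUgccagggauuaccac
miR-27a-3p: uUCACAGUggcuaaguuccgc
miR-27b-3p: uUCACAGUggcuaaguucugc
miR-24-3p: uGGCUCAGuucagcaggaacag
let-7a-5p: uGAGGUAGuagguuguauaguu
let-7c-5p: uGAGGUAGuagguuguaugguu
let-7e-5p: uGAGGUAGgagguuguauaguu
miR-99a-5p: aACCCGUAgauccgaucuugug
miR-99b-5p: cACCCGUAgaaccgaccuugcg
miR-100-5p: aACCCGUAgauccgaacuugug
miR-125a-5p: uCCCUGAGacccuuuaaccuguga
miR-125b-5p: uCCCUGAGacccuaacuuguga

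Members of 1 seed family that stood on opposite sides of the comparison, or changed unequally, are the third set. miR-30a-5p differs from miR-30e-5p by C13U, and miR-196a-5p differs from miR-196b-5p by A12C.
miR-30a-5p: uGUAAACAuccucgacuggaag
miR-30c-5p: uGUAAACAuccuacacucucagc
miR-30e-5p: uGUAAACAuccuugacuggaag
miR-196a-5p: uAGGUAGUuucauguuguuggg
miR-196b-5p: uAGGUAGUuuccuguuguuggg
miR-26a-5p: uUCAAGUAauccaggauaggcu
miR-26b-5p: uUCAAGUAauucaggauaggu
miR-92a-3p: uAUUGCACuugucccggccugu
miR-92b-3p: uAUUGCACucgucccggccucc
miR-25-3p: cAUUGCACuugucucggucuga

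The last set holds abundant miRNAs at near-equal level in both lines by the deposited scaling, and the 5 seeds in it differ from each other.
miR-454-3p: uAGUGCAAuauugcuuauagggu
miR-93-5p: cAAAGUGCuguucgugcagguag
miR-128-3p: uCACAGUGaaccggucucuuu
miR-21-5p: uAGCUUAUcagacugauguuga
miR-191-5p: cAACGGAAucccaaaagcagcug

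Libraries held 1663181 and 2294994 miRNA reads for ES-2 and 1173902 and 1549279 for MV-3. Levels are given as the deposited normalised CPM, counts per 1000000 miRNA reads divided by a scaling factor of the library (trimmed mean of M values, TMM). The factors lay between 0.848 and 0.866 in ES-2 and between 1.15 and 1.18 in MV-3. Where it is named, library CPM is the same count without the factor. Leaving the factor out raised the median log2 fold change, taken over the 528 miRNAs tested, from 0.00 to 0.40, so that, without it, increases reported here are larger by about that much and decreases smaller. A decrease of up to that size is lost or turned by the choice of scaling. Across miRNAs, Pearson's r of log2 levels was 0.973 between the ES-2 libraries, 0.979 between the MV-3 libraries and 0.875 to 0.888 between a library of each line, where the points share the library and are not independent. ES-2 replicate 2 differed from ES-2 replicate 1 at low counts, with 160 reads of imprinted DLK1-DIO3 miRNAs against 10. In Huh-7 these miRNAs had 74 reads in replicate 1 and 575 in replicate 2. The DLK1-DIO3 result is given without ES-2 replicate 2, as are the folds of called miRNAs with over 3 reads in ES-2 that this library moved by over 1.5 times.

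The label of MV-3 was checked against miRNAs of the melanocyte lineage and of melanoma, namely miR-211-5p, which is made from an intron of the melastatin gene TRPM1, miR-204-5p and the miR-506 to miR-514 cluster of the X chromosome. Of 11 such miRNAs, 10 had 0 reads in both MV-3 libraries, and miR-204-5p had 2 and 2 reads. The same 10 had 0 reads in ES-2. A count of 0 allows up to 3 reads, or 2.56 library CPM in the shallower MV-3 library, so the defining miRNAs of the lineage were absent at this depth. Markers of epithelium, the miR-200 family with miR-203a-3p and miR-205-5p, summed to 55.9 and 53.2 library CPM in ES-2 and to 34.1 and 55.5 in MV-3. Of these 7 markers, 2 had 0 reads in ES-2 and 2 in MV-3. Markers of mesenchyme, namely miR-143-3p, miR-145-5p, miR-199a-5p and miR-214-3p, summed to 667 and 702 library CPM in ES-2 and to 2487 and 2674 in MV-3, of which miR-143-3p gave 1216 and 1197 and miR-199a-5p 1234 and 1409. A high miR-143-3p was not particular to MV-3, with 1525 and 1553 library CPM in A-549 and 398 and 439 in Huh-7. miR-199b-5p, of the same miR-199 family but not among these 4 markers, went the other way, with 67 and 150 reads in ES-2 and 0 and 0 in MV-3. Whether another cell type contributed to either culture was not tested. The liver miRNA miR-122-5p, which held 132716 and 146922 library CPM in Huh-7, was present with 6 and 57 reads in ES-2 and 53 and 48 reads in MV-3. How many reads of low counts came from another library of the study was not tested.

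Differences between the lines were tested with limma on log2(normalised CPM + 1), and a miRNA was called at a Benjamini-Hochberg adjusted p below 0.01. Among 528 miRNAs, 136 (25.8%) were called, 61 (11.6%) higher and 75 (14.2%) lower in MV-3. Counts of called list members below stand beside these shares, and a count near them is no result about its list. By library size only, 138 were called, 82 higher and 56 lower, so that the share of higher calls moved from 44.9% to 59.4%. Of the 136 calls, 115 were also made by library size only in the same direction and 0 in the opposite direction. In 108 of the 136 the log2 fold change was at least 1 in either direction. The libraries of the lines did not overlap for 333 of 528 miRNAs (63.1%), including all 136 that were called. The labels do not say whether replicate libraries came from separate cultures, and p-values measure the spread between these libraries.

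With 1 library left out at a time, 75 of the 136 miRNAs remained called whichever of the 4 libraries was missing, and without ES-2 replicate 2 the number called lower fell from 75 to 49. Of the called miRNAs described with values below, 25 lost the call in at least 1 of these fits, with a highest adjusted p between 0.0104 and 0.0688. let-7a-5p, let-7c-5p, miR-26b-5p, miR-145-3p, miR-148b-3p, miR-151a-5p, miR-183-5p, miR-369-3p and miR-485-3p lost it whichever library was missing. let-7e-5p and miR-129-5p kept it only without ES-2 replicate 2, miR-224-3p only without ES-2 replicate 1, miR-145-5p and miR-19b-3p only without MV-3 replicate 1, and miR-28-5p, miR-193b-5p and miR-93-3p only without MV-3 replicate 2. miR-125b-5p and miR-221-3p lost it without either ES-2 library and miR-149-5p without either MV-3 library. miR-214-3p lost it without ES-2 replicate 1 or MV-3 replicate 2. miR-17-5p and miR-155-5p lost it without ES-2 replicate 1, miR-26a-5p without ES-2 replicate 2 and miR-130a-3p without MV-3 replicate 1.

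**Figure D1:**
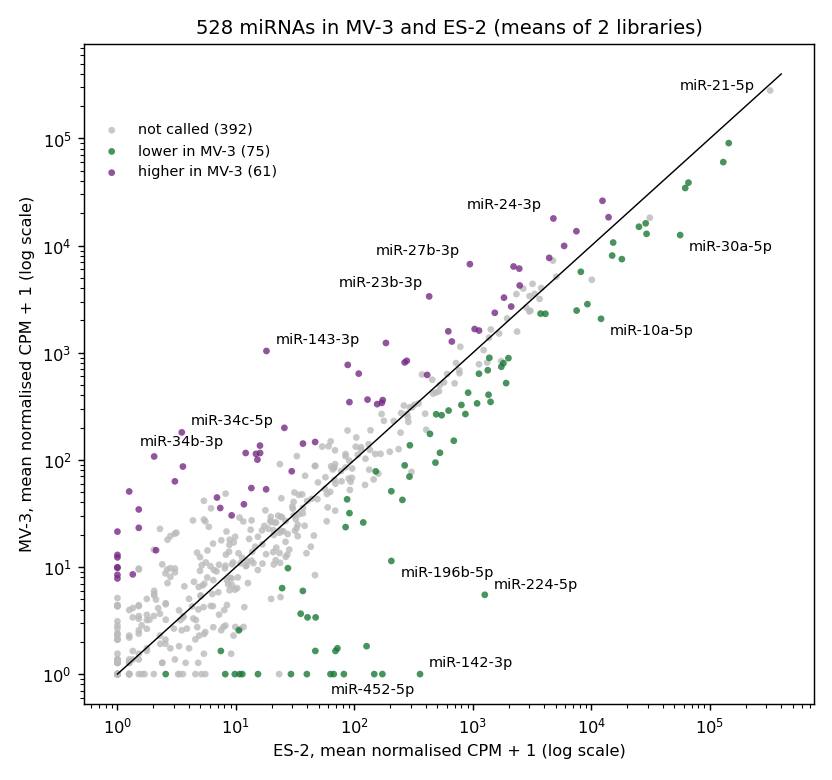
Mean normalised CPM + 1 of 528 miRNAs in ES-2 (horizontal axis, log scale) and in MV-3 (vertical axis, log scale), each the mean of 2 libraries, with the line of equality. Purple points are the 61 miRNAs called higher in MV-3, green points the 75 called lower and grey points the 392 not called; miR-142-3p and miR-452-5p sit on the lower edge at 0 in MV-3 while miR-21-5p lies at the upper right near the line.

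The largest decreases were those of miRNAs with no or few reads in MV-3. miR-142-3p, a miRNA of blood-forming cells cut from a hairpin in an exon of MIR142HG (chromosome 17, 58331232 to 58331318, minus strand; genome build GRCh38 here and below), had 542 and 657 reads in ES-2, or 376 and 337 normalised CPM, and 0 and 0 reads in MV-3. It was at least 161-fold lower in MV-3 when the absent reads were set to 3 per library (adjusted p = 3.37e-06, limma). miR-142-5p, from the other arm of the hairpin, had 177 and 165 normalised CPM in ES-2 and 0 reads in MV-3, at least 77.1-fold lower (adjusted p = 3.37e-06). Other markers of blood cells were not high in ES-2: miR-223-3p and miR-144-3p had 0 reads in both lines, miR-451a had 1 read in 1 ES-2 library and miR-150-5p 2 reads in 1. In MV-3, 6 of 7 blood cell markers had 0 reads, and miR-486-5p, an erythroid and muscle miRNA, was the exception.

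The miR-224/miR-452 cluster in the GABA receptor subunit gene GABRE (chromosome X, 151958578 to 151959712, minus strand) was near 0 in MV-3 in all 4 of its measured mature forms. miR-224-5p measured 1169 and 1348 normalised CPM in ES-2 and 2.96 and 6.04 in MV-3, with 4 and 11 reads in the latter, and was 279.7-fold lower (log2 fold change -7.89 ± 0.26, SE; adjusted p = 3.37e-06), or 425-fold without MV-3 replicate 2. miR-452-5p measured 137 and 155 in ES-2 with 0 reads in MV-3, at least 65.7-fold lower (adjusted p = 2.3e-06). The minor arms miR-452-3p and miR-224-3p also had 0 reads in MV-3, at least 12.7-fold and 3.21-fold lower. All 4 mature miRNAs of the cluster list were called lower, and the summed cluster changed by -8.09 ± 0.26 (adjusted p = 6.56e-06).

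Other miRNAs were at or near 0 in MV-3 and measurable in ES-2. miR-708-5p, related to the LINE-2 derived miR-28 and cut from an intron of TENM4 (chromosome 11, 79402022 to 79402109, minus strand), had 87.5 and 73.4 normalised CPM in ES-2 and 0 reads in MV-3, at least 36.2-fold lower (adjusted p = 2.5e-05). miR-199b-5p measured 46.5 and 77 in ES-2 and had 0 reads in MV-3, at least 27.8-fold lower (adjusted p = 3.66e-05). The miR-3689 cluster on chromosome 9 summed to 333 and 342 in ES-2 and 2.22 and 2.20 in MV-3 (log2 fold change -6.72 ± 0.24, adjusted p = 9.38e-06). Its most abundant member, miR-3689f, had 425 reads in ES-2 and 3 in MV-3, a ratio of 133 with an exact 95% counting interval of 45.1 to 646. The 4 tested miR-3689 members share the seed GUGAUAU and lie in near-identical hairpins, so reads may have been divided among them. miR-196b-5p, from the HOXA cluster, measured 213 and 195 in ES-2 and 8.14 and 12.6 in MV-3, 19.6-fold lower (adjusted p = 6.97e-05).

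The remaining large decreases were graded. miR-138-5p fell from 271 and 235 to 37 and 45.5 normalised CPM (6.13-fold, adjusted p = 0.000451). miR-10a-5p, from the HOXB cluster, fell from 11859 and 12254 to 2126 and 2020 (5.82-fold, adjusted p = 2.06e-05). miR-92a-1-5p, the minor arm of a miR-17-92 hairpin, fell from 439 and 524 to 97 and 89.4 (5.17-fold, adjusted p = 2.6e-05). Within each of these miRNAs the 2 libraries of a line lay close together, as the plot of the largest increases and decreases shows.

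The largest increases in MV-3 were those of the miR-143/miR-145 and miR-34b/c clusters. miR-143-3p, a miRNA of smooth muscle and fibroblasts, is cut from an exon of the noncoding RNA gene CARMN (chromosome 5, 149428918 to 149429023, plus strand). It gave 13 and 49 reads in ES-2 and 1428 and 1855 in MV-3, or 9.02 and 25.2 against 1057 and 1018 normalised CPM, and was 60.7-fold higher in MV-3 (SE of the log2 fold change 0.40, adjusted p = 7.1e-05), or 115-fold without ES-2 replicate 2. Its neighbour miR-145-5p had 0 reads in ES-2 and 9 and 29 in MV-3, at least 5.42-fold higher (adjusted p = 0.00196), and miR-145-3p gave 1 and 0 reads in ES-2 and 7 and 18 in MV-3 (adjusted p = 0.00517). All 3 tested members of the cluster were called higher, and the fourth, miR-143-5p, was under the filter. Both MV-3 libraries held far more reads of miR-143-3p than of miR-145-5p, although both hairpins lie in CARMN.

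The miR-34 family is known as a set of p53-responsive miRNAs that restrain the cell cycle. miR-34c-5p measured 1.39 and 3.59 normalised CPM in ES-2 and 194 and 165 in MV-3, 72.1-fold higher (log2 fold change 5.76 ± 0.64, adjusted p = 0.000637), with 2 and 7 reads behind the ES-2 values, and 129-fold higher without ES-2 replicate 2. miR-34b-3p gave 3 and 0 reads in ES-2 and 173 and 155 in MV-3, a ratio of 117 with an exact 95% counting interval of 39.6 to 569 (adjusted p = 0.00044). miR-34c-3p had 0 reads in ES-2 and 16 and 22 in MV-3, at least 5.74-fold higher (adjusted p = 0.000312). Both hairpins lie in exons of MIR34BHG (chromosome 11, 111512938 to 111513515, plus strand). miR-34a-5p, from a separate gene, was near absent in both lines, with 6 and 1 reads in ES-2 and 0 and 0 in MV-3, against 619 and 446 in Huh-7 and 707 and 553 in A-549. Of 5 tested family members, 3 were called higher and 0 lower, beside 11.6% and 14.2% of all 528 miRNAs.

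Further large increases concerned miRNAs at intermediate level. miR-193a-5p rose from 65.3 and 108 to 715 and 823 normalised CPM (8.86-fold, adjusted p = 9.68e-05) and miR-365a-3p from 9.02 and 18.5 to 101 and 124 (8.19-fold, adjusted p = 0.000604). miR-365a-3p and miR-365b-3p have 0 differences over 22 bases, so their reads cannot be assigned to the hairpin on chromosome 16 or that on chromosome 17. All 4 tested members of the miR-193/miR-365 list were called higher, with the lowest increase for miR-193b-5p (1.70 ± 0.30). miR-486-5p rose from 6.25 and 15.9 to 114 and 116 (adjusted p = 0.00057), miR-129-5p, a miRNA of neural tissue, from 8.33 and 21.6 to 133 and 137 (adjusted p = 0.00363) and miR-149-5p, from an intron of GPC1, from 22.2 and 6.16 to 99.2 and 99.9 (adjusted p = 0.00508). For these 3 the ES-2 libraries differed from each other by more than the MV-3 libraries did, at levels of few reads. Without ES-2 replicate 2 the fold was 12.5 for miR-365a-3p, 18.4 for miR-486-5p (10.4 with it), 16.2 for miR-129-5p (9.03 with it) and 4.48 for miR-149-5p (7.02 with it). Without ES-2 replicate 1 the fold of miR-149-5p was 16.2.

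**Figure D2:**
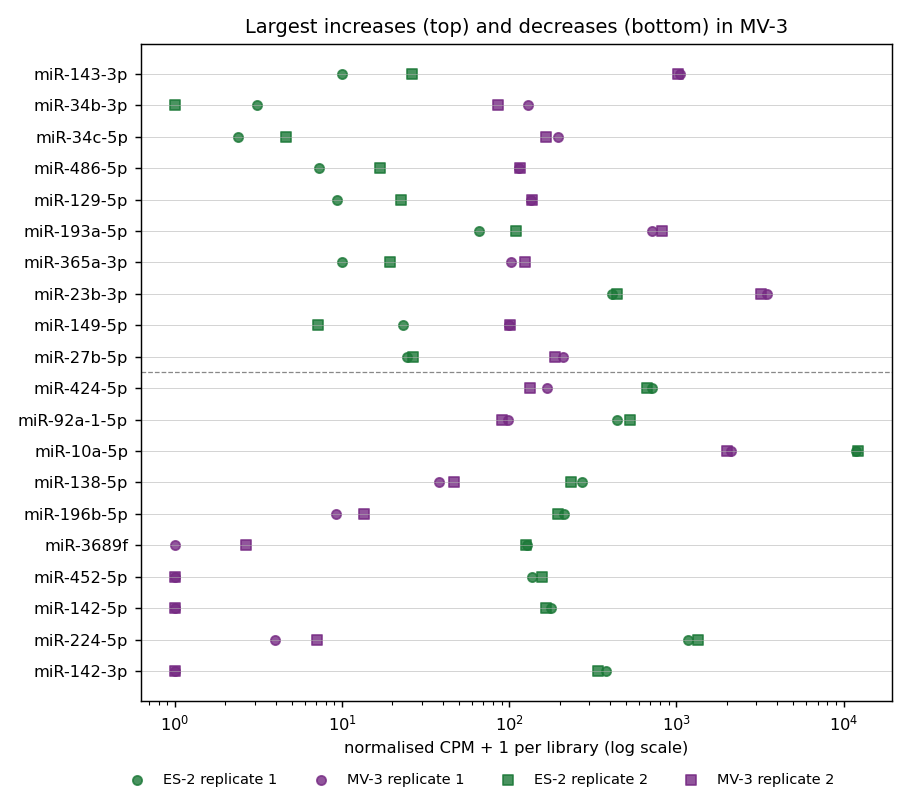
Normalised CPM + 1 (log scale) in each of the 4 libraries for the 10 largest increases (above the dashed line) and the 10 largest decreases (below it) among called miRNAs that reached a mean of 100 library CPM in either line; green points are ES-2, purple points MV-3, circles replicate 1 and squares replicate 2. Points of the lines are separated in every row, and miR-142-3p, miR-142-5p and miR-452-5p lie at 1, which stands for 0 reads, in both MV-3 libraries.

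Hairpin clusters were then compared as sums of their mature miRNAs, leaving out names with copies at several places or without a reference sequence. The latter left miR-34c-5p, miR-221-5p and miR-425-5p out of the sums of their clusters, and miR-542-3p was in no sum either. Of 32 clusters with at least 2 measured hairpins, 17 (53.1%, against 26.8% of all 250 hairpin loci and clusters) were called, 9 (28.1%) higher and 8 (25%) lower in MV-3. Without the scaling factor, that is by library size only, 14 were called higher and 8 lower. Among called clusters the 5 largest increases were those of miR-143/miR-145 (5.98 ± 0.38), miR-34b/c (5.18 ± 0.33, without miR-34c-5p), miR-23b/miR-27b/miR-24-1, miR-181a-2/b-2 (2.51 ± 0.10) and miR-193b/miR-365a (2.16 ± 0.23). The miR-193b/miR-365a sum, 178 and 195 normalised CPM in MV-3, holds miR-365a-3p, whose level is given above. Reads of miR-365a-3p may come from the identical miR-365b-3p of chromosome 17. The 5 largest decreases were those of miR-224/miR-452, miR-3689, miR-424/miR-503/miR-450 (-1.72 ± 0.08), miR-29a/b-1 (-1.20 ± 0.083) and miR-99a/let-7c. Of the 17, 13 remained called whichever library was left out. Those of miR-99a/let-7c (adjusted p up to 0.0122, without an ES-2 library), miR-100/let-7a-2 (0.0106, without ES-2 replicate 1), miR-200b/a/429 (0.0217, without ES-2 replicate 2 or MV-3 replicate 2) and miR-421/miR-374b (0.0148, without any library other than MV-3 replicate 2) did not. The lines differed in opposite directions for paralogous clusters that carry miR-99/miR-100, miR-125 and let-7, a family that restrains growth and stem cell programs. The cluster in SPACA6 on chromosome 19 (miR-99b, let-7e, miR-125a) was higher in MV-3, from 12500.2 and 13524 to 24959.8 and 25302 summed normalised CPM (log2 fold change 0.95 ± 0.055, adjusted p = 5.68e-05). The cluster in MIR99AHG on chromosome 21 (miR-99a, let-7c) was lower, from 2872 and 2951 to 1350.2 and 1297 (-1.14 ± 0.13, adjusted p = 0.000832). The cluster in MIR100HG on chromosome 11 (miR-100, let-7a-2) was lower as well, from 128918 and 130653 to 65499 and 54973 (-1.11 ± 0.11, adjusted p = 0.000565), and this sum is almost wholly miR-100-5p.

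The sums are made of the single members given next, apart from miR-125b-5p, which is in none of these sums. On chromosome 19, miR-99b-5p rose from 2460.2 and 2458 to 6033 and 6163 normalised CPM (adjusted p = 2.76e-05), let-7e-5p from 5431 and 6339 to 9716 and 10153 (adjusted p = 0.00252) and miR-125a-5p from 4399 and 4401 to 7803 and 7575 (adjusted p = 4.71e-05). miR-99b-3p, the minor arm, rose more than the main arm, from 149 and 218 to 1265 and 1201 (log2 fold change 2.77 ± 0.18). On chromosome 21, miR-99a-5p fell from 923 and 898 to 462 and 384 (adjusted p = 0.000389) and let-7c-5p from 1937 and 2048 to 876 and 903 (adjusted p = 0.00112). miR-100-5p, the third most abundant miRNA of either line, fell from 128779 and 130531 to 65419 and 54893 (adjusted p = 0.00044). miR-125b-5p, with copies on chromosomes 11 and 21, fell from 15286 and 14644 to 8749.5 and 7403 (adjusted p = 0.000966). The directions of these 8 miRNAs were the same by library size only, where miR-125b-5p changed by -0.45 (adjusted p = 0.0105) and let-7e-5p by 1.20.

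The let-7-5p family as a whole had 9 tested members, of which 1 (let-7e-5p) was called higher and 4 lower, with a median log2 fold change of -0.77 beside 0.00 over all miRNAs. let-7a-5p, the second most abundant miRNA of either line, fell from 137879 and 150472 to 87714 and 93415 normalised CPM (adjusted p = 0.00248). let-7g-5p fell by 1.27 on the log2 scale, the most within the family (adjusted p = 6.23e-05). The split was 1 higher and 2 lower by library size only. let-7a-5p then changed by -0.23 with an adjusted p of 0.125, while let-7g-5p remained called (-0.83, adjusted p = 0.000189). Within the family, let-7e-5p took 2.35% and 2.54% of reads in the ES-2 libraries and 6.69% and 6.62% in the MV-3 libraries, a share that does not depend on scaling. let-7a-5p held 59.6% and 60.3% against 60.4% and 60.9%.

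The miR-23/miR-27/miR-24 families, which act in angiogenesis and lipid metabolism, come from a cluster in AOPEP on chromosome 9 (miR-23b, miR-27b, miR-24-1) and from one in MIR23AHG on chromosome 19 (miR-23a, miR-27a, miR-24-2). Both clusters were higher in MV-3 and the increase was larger on chromosome 9, where the sum rose from 1327 and 1470.3 to 10485 and 10137 (2.88 ± 0.071, 95% interval 2.71 to 3.06, adjusted p = 3.65e-06). On chromosome 19 it rose from 15279.7 and 15704 to 31838 and 29623 (0.99 ± 0.085, 95% interval 0.78 to 1.20, adjusted p = 0.000257). The intervals did not overlap, and the difference itself was not tested.

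miR-23b-3p rose from 411 and 442 to 3491 and 3219.6 normalised CPM (7.87-fold, adjusted p = 2.3e-06), miR-27b-3p from 889.9 and 993 to 6738 and 6683 (7.13-fold, adjusted p = 2.58e-06) and miR-27b-5p from 23.6 and 25.7 to 209 and 187 (8.04-fold, adjusted p = 2.6e-05). miR-23a-3p rose 2.11-fold, from 12079.5 and 12717 to 27619.5 and 24810.2 (adjusted p = 0.000262). miR-27a-3p measured 2744 and 2570.3 in ES-2 and 3731 and 4217 in MV-3 and was not called (0.58 ± 0.12, adjusted p = 0.0117). miR-24-3p, made by both clusters, rose from 4679 and 4873 to 17309.6 and 18519 (3.75-fold, adjusted p = 5.06e-06) and was among the 10 most abundant miRNAs in MV-3 but not in ES-2. Among miR-27 reads, miR-27b-3p took 24.5% and 27.9% in ES-2 and 64.4% and 61.3% in MV-3, and among miR-23 reads miR-23b-3p took 3.29% and 3.36% in ES-2 and 11.2% and 11.5% in MV-3. miR-23a-3p and miR-23b-3p differ near the 3′ end, and whether reads that end before that position were counted for either was not tested. Of 7 tested members of the list, 4 were called higher and 0 lower, and by library size only 6 were called higher.

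**Figure D3:**
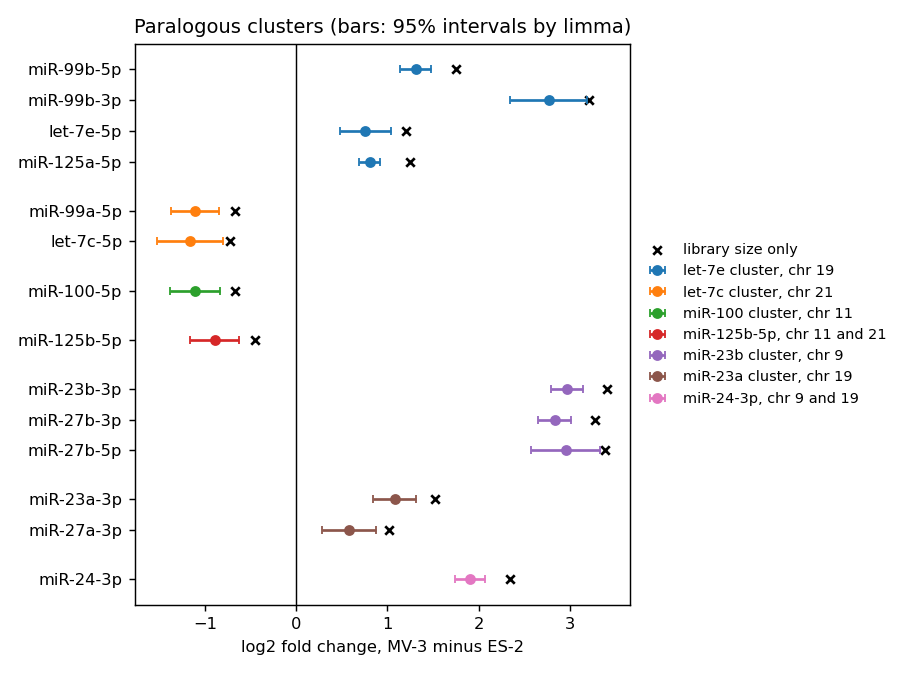
Log2 fold change of MV-3 over ES-2 (horizontal axis) for miRNAs of paralogous clusters, with 95% intervals by limma from 2 libraries per line; colors mark the cluster and black crosses the value by library size only. Members of the let-7e cluster on chromosome 19 lie to the right of 0 and those of the let-7c and miR-100 clusters to the left under both scalings, and miRNAs of the miR-23b cluster lie near 3.

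Summed by seed, 19 of 45 families with at least 2 tested members were called (42.2%, against 24.1% of all 410 seed groups), 9 higher (20%) and 10 lower (22.2%). Scaling by library size only gave 15 higher and 7 lower, and the sums of let-7, miR-19 and miR-181 were then not called. Among called families the largest increases were those of the seeds UGGACUG of miR-1269 (5.57 ± 0.30), GGGACUU and AAUGCCC of the arms of miR-365 (3.11 ± 0.55 and 2.96 ± 0.19), UCACAGU of miR-27 (1.57 ± 0.064) and GCCUACU of miR-24-5p (1.37 ± 0.27). miR-1269a gave 0 and 1 reads in ES-2 and 46 and 119 in MV-3, a ratio of 176 with an exact 95% counting interval of 31.2 to 6999. The largest decreases were those of GUGAUAU of miR-3689, GUAAACA of miR-30 (-1.97 ± 0.062), UUUCAGU of the miR-30 3p arms (-1.42 ± 0.069), AGCACCA of miR-29 (-1.18 ± 0.089) and ACCCGUA of miR-99/miR-100 (-1.0 ± 0.086). The GUAAACA sum and its rank cover 3 members, without miR-30b-5p and miR-30d-5p, which had no sequence. With both, the miR-30 5p arms summed to 82122.5 and 81658.7 normalised CPM in ES-2 and 36380.1 and 35614.3 in MV-3, which was not tested. Of the 19 families, 12 remained called whichever library was left out, and those of let-7, miR-19, miR-24-5p, miR-148/miR-152, miR-181, miR-196 and the 5p arms of miR-365 did not. In several families, members that share a seed stood on opposite sides. The miR-30 family, which restrains epithelial dedifferentiation and autophagy, had 5 tested members, 3 called lower and 1 higher. miR-30a-5p fell from 56441 and 55718 to 12793 and 12296 normalised CPM (4.47-fold, adjusted p = 3.37e-06), miR-30c-5p from 7197 and 7804 to 2688 and 2262 (3.03-fold, adjusted p = 8.38e-05) and miR-30e-5p from 4075 and 4099.7 to 2218 and 2400.3 (1.77-fold, adjusted p = 0.000181). miR-30d-5p rose from 14115 and 13778 to 18384 and 18419 (1.32-fold, adjusted p = 0.000693). miR-30b-5p measured 294 and 259 in ES-2 and 298 and 237 in MV-3 and was not called. miR-30a-5p therefore led the family in ES-2, with 68.7% and 68.2% of its reads, and miR-30d-5p in MV-3, with 50.5% and 51.7% against 17.2% and 16.9% in ES-2.

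miRNAs of the HOX clusters, which share their loci with the genes that set position along the body axis, had 1 of 4 members called higher and 2 lower. miR-10a-5p, in the HOXB3 locus on chromosome 17, fell 5.82-fold as given above, whereas miR-10b-5p in HOXD3 on chromosome 2 measured 2922 and 3057 in ES-2 and 2404 and 2454 in MV-3 (log2 fold change -0.30, 95% interval -0.51 to -0.09, adjusted p = 0.0365). miR-10a-5p took 80.2% and 80.0% of miR-10 reads in ES-2 and 46.9% and 45.2% in MV-3. miR-196a-5p, with hairpins in the HOXB7 and HOXC6 loci, rose from 242 and 309.7 to 755 and 925 (3.05-fold, adjusted p = 0.000279), while miR-196b-5p of the HOXA cluster fell 19.6-fold. The share of miR-196b-5p among miR-196 reads was 46.9% and 38.6% in ES-2 and 1.07% and 1.35% in MV-3.

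miR-26 members, which lie in introns of CTDSP phosphatase genes, changed in opposite directions. miR-26a-5p fell from 14864 and 15641 to 10452 and 10908 (adjusted p = 0.000884) and miR-26b-5p rose from 2505 and 2456 to 3938 and 4549.8 (adjusted p = 0.00346). By library size only, miR-26a-5p changed by -0.07 and was not called. In the miR-25/miR-92 family, miR-92a-3p fell from 60629 and 63106 to 33575 and 35421 (adjusted p = 6.23e-05) and miR-92b-3p rose from 2199 and 2203 to 6551 and 6210.4 (adjusted p = 1.71e-05), so that miR-92b-3p took 3.34% and 3.22% of family reads in ES-2 and 15.3% and 14.1% in MV-3. In the miR-103/miR-107 family, whose hairpins lie in pantothenate kinase genes, miR-103a-3p rose from 7301 and 7639.7 to 13334 and 13914 (adjusted p = 0.00011) and miR-107 measured 165 and 165 in ES-2 and 107 and 119 in MV-3 and was not called (adjusted p = 0.054). The miR-125 family sum was 19685 and 19045 in ES-2 and 16552 and 14978 in MV-3 and was not called (-0.30 ± 0.062, adjusted p = 0.0109), although each member was.

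**Figure D4:**
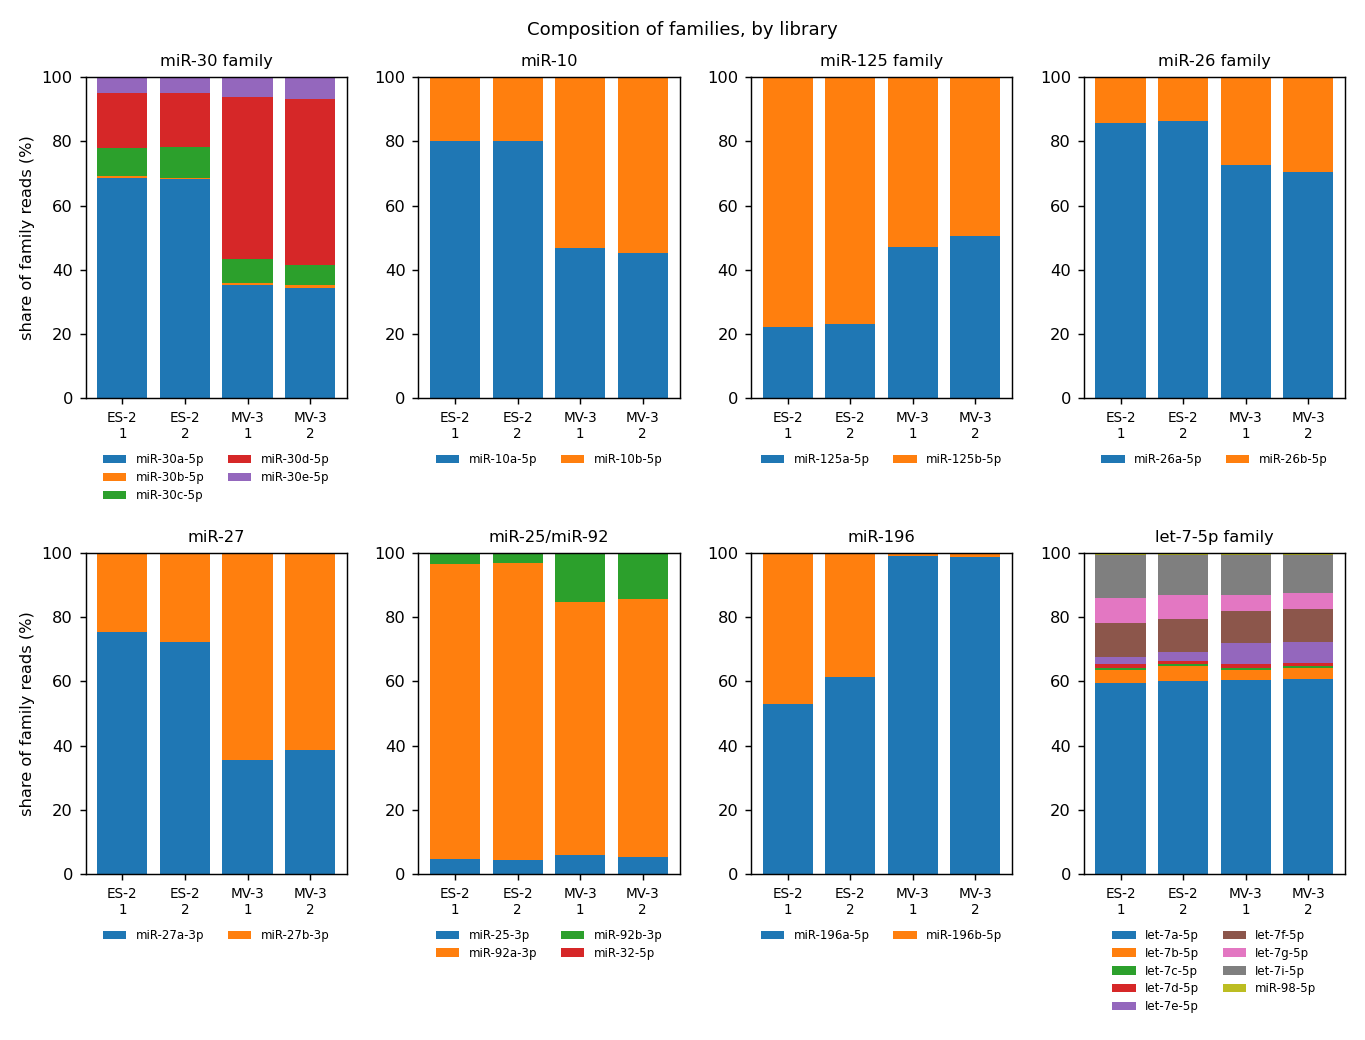
Share of reads (%) that each member takes within 8 miRNA families, in each of the 4 libraries; shares within a library do not depend on the scaling between libraries. Replicate libraries of a line look alike, miR-30d-5p takes the place of miR-30a-5p as the largest member in MV-3, and let-7e-5p widens while let-7a-5p stays near 60%.

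The miR-17-92 cluster on chromosome 13, a MYC-driven promoter of proliferation, had 7 list members tested. Of these, 5 were called lower and 0 higher, beside 14.2% and 11.6% of all 528 miRNAs. Of the 5, 3 were called lower by library size only, and miR-17-5p (-0.38, adjusted p = 0.0315) and miR-19b-3p (-0.69, adjusted p = 0.0162) were not. miR-20a-5p fell from 1739 and 1730.2 to 737 and 739 (adjusted p = 7.49e-05), miR-17-5p from 1168 and 1079 to 612 and 659.6 (adjusted p = 0.000691) and miR-19b-3p from 636 and 609 to 333 and 242 (adjusted p = 0.00272). miR-19a-3p was not called (-0.45 ± 0.24). The cluster sum, without miR-19b-3p and miR-92a-3p, which have copies on the X chromosome, changed by -1.07 ± 0.06 (adjusted p = 5.23e-05). Its paralog on chromosome 7, the miR-106b-25 cluster in MCM7, did not pass the test, with 9147 and 9643 summed normalised CPM in ES-2 and 8534 and 8909.7 in MV-3 (-0.11, 95% interval -0.25 to 0.04), and 0 of its 4 list members were called. The paralog on the X chromosome, miR-106a-363, had between 13 and 38 reads per library and 1 tested member, not called.

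miR-221 and miR-222, which target the cell cycle inhibitor p27, were lower in MV-3 in 3 of 4 mature forms, and by library size only in 1 of 4, miR-222-3p (-0.33, adjusted p = 0.00142). miR-222-3p fell from 63999.5 and 67794 to 38796 and 38673 (adjusted p = 0.000129) and miR-221-3p from 28091 and 29319 to 17780.3 and 14497 (adjusted p = 0.000867; 0.0124 by library size only). The ratio of both was nearly fixed, with miR-222-3p at 69.5% and 69.8% of their summed reads in ES-2 and 68.6% and 72.7% in MV-3. In the miR-424/miR-503 cluster on the X chromosome, related to miR-16 by seed, miR-424-3p fell from 1350.2 and 1465 to 326 and 368 (adjusted p = 1.24e-05), miR-503-5p from 1386 and 1319 to 395 and 413 (adjusted p = 5.21e-05) and miR-424-5p from 713 and 664 to 168 and 132 (adjusted p = 0.000237). The neighbouring miR-450a-5p, miR-450b-5p and miR-542-3p were not called, at log2 fold changes of 0.32, 0.49 and 0.94. Thus 3 of the 6 tested members of that list were lower and 0 higher, with the calls in the miR-424 and miR-503 hairpins, and by library size only 3 were lower and 1 higher.

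The miR-29 family, which restrains collagen genes, had 3 tested members and 1 call, miR-29a-3p, which fell from 29599 and 28794 to 12974 and 12776 (adjusted p = 0.000136) and held over 98% of the family reads in each library. miR-155-5p, a miRNA of inflammation and lymphoid cells, fell from 9019 and 9479.8 to 2461 and 3221 (adjusted p = 0.000604). In the list of inflammatory and blood miRNAs, 3 of 5 tested were lower, namely miR-155-5p and both arms of miR-142, beside 14.2% of all 528 miRNAs. miR-146a-5p, a brake on NF-kB signaling, was not called (0.30 ± 0.094, adjusted p = 0.0503; 0.74 by library size only, adjusted p = 0.00135). miR-378a-3p, from the PPARGC1B locus, fell from 799.7 and 797 to 338 and 311 (adjusted p = 0.000221), 1 of 2 tested in its list. In the miR-181 family, 1 of 4 tested was called, miR-181a-5p, which fell from 1254 and 1412 to 622 and 749 (adjusted p = 0.000722). It was not called by library size only (-0.52, adjusted p = 0.0108). Its minor arm from chromosome 9, miR-181a-2-3p, marks 1 of its hairpins and rose from 115 and 100.1 to 674 and 600.3 (5.92-fold, adjusted p = 1.24e-05), opposite to the main arm that 2 hairpins give.

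Single members of further families were higher in MV-3. In the list of the LINE-2 derived miR-28, miR-151 and miR-708, 3 of 5 were called higher and 1, miR-708-5p, lower. miR-151a-3p rose from 1864 and 1791 to 3169.7 and 3362 (adjusted p = 0.000221), miR-151a-5p from 1569.5 and 1487 to 2432 and 2285 (adjusted p = 0.0023) and miR-28-5p from 415 and 405 to 643 and 597 (adjusted p = 0.00123). miR-148b-3p was the 1 called of 3 tested in the miR-148/miR-152 family and rose from 1124 and 1126 to 1651 and 1566 (adjusted p = 0.00271). miR-130a-3p, the 1 called of 4 tested in the miR-130/miR-301/miR-454 family, rose from 13.2 and 11.8 to 55.5 and 51.6 (adjusted p = 0.00137). In the miR-183/miR-96/miR-182 cluster, known from sensory cells, 1 of 3 was called, miR-183-5p, with an increase of 0.36 ± 0.059 (adjusted p = 0.00343). Its change was 0.80 by library size only, where 2 of the 3 were called higher, as were 2 of 3 in the miR-148/miR-152 family.

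In the miR-199/miR-214 list, 1 of 5 tested was higher and 1 lower. miR-214-3p gave 0 and 2 reads in ES-2 and 34 and 76 in MV-3, a ratio of 58.7 with an exact 95% counting interval of 15.9 to 491 (adjusted p = 0.000867). miR-199b-5p was at 0 reads in MV-3, as given above, but miR-199b-3p measured 2289 and 2362 in ES-2 and 3671 and 3381 in MV-3 and was not called. miR-199a-3p measured 4664 and 4799 in ES-2 and 7621 and 6868 in MV-3 and was not called. The 3p arms of miR-199a and miR-199b are known to be identical, so their reads cannot be assigned to a hairpin, whereas the 5p arms can. miR-199a-5p measured 761 and 801 in ES-2 and 1073 and 1198 in MV-3 (log2 fold change 0.54 ± 0.45, adjusted p = 0.42).

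No call was made by limma in 13 lists, namely the miR-15/miR-16 family (5 tested), the miR-191/miR-425 cluster (3), miR-320 with miR-484 (5), the cluster in CLCN5 introns (7), miR-192/miR-194/miR-215 (3), both arms of miR-21 and of miR-31, the miR-200 family (4), the miR-106b-25 and miR-106a-363 clusters given above, miR-204/miR-211 (1), IGF2-H19 (2) and muscle (1). Of their 40 tested miRNAs, 11 had an unadjusted p below 0.05, and by library size only 4 were called higher and 0 lower. edgeR's quasi-likelihood test on the reads called 1 of the 40, miR-31-5p, and DESeq2 called 5, namely miR-31-5p and miR-200b-3p higher and miR-21-5p, miR-25-3p and miR-425-5p lower in MV-3. The miR-200 family, a keeper of the epithelial state, had low counts in both lines. miR-200c-3p measured 45.8 and 43.1 in ES-2 and 12.6 and 24.7 in MV-3 (adjusted p = 0.0505), and miR-141-3p gave 7 and 11 reads in ES-2 and 0 in MV-3. The sum of the cluster of miR-200b, miR-200a and miR-429 was called higher in MV-3, at 9.72 and 7.19 normalised CPM in ES-2 and 17 and 22 in MV-3 (adjusted p = 0.00361), although none of the 4 family members tested was called. miR-203a-3p gave 6 and 13 reads in ES-2 and 0 and 2 in MV-3, and miR-205-5p 0 in both. The embryonic miR-302/miR-367 and miR-371 to miR-373 miRNAs (8 names) had 0 reads in both lines, as did the 10 names of the miR-506 to miR-514 list. miR-483-3p and miR-483-5p, from the imprinted IGF2 gene, were tested and not called, with 0 to 15 reads per library, and miR-675 had 0 reads. Among muscle miRNAs, miR-133a-3p and miR-206 had 0 reads and miR-1-3p at most 12 in a library.

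The imprinted DLK1-DIO3 region on chromosome 14 holds many miRNA hairpins, of which 32 mature forms were listed and 30 tested. Their reads summed to 10 and 160 in the ES-2 libraries and 322 and 393 in the MV-3 libraries, or 6.01 and 69.7 library CPM against 274 and 254. In A-549, where the region was active, the sum was 21015 and 15897 reads. Of the 30, 2 were called higher in MV-3 and 0 lower: miR-369-3p, from 5.55 and 7.19 to 40.0 and 29.1 normalised CPM (adjusted p = 0.007), and miR-485-3p, from 0.694 and 1.54 to 11.8 and 14.8 (adjusted p = 0.00997), 11.9-fold and 19.2-fold without ES-2 replicate 2. Of the 30, 1 was called by library size only, and 25.8% of all 528 miRNAs were called with the deposited scaling. The sum over the miR-379 to miR-656 cluster was not called (3.35 ± 1.31, adjusted p = 0.0968), and the ES-2 libraries differed from each other (7.64 and 74.5) far more than those of MV-3 (265 and 253). Without ES-2 replicate 2 the cluster sum changed by 4.91 (adjusted p = 0.0476) and without ES-2 replicate 1 by 1.78 (adjusted p = 0.430). Neither miR-369-3p nor miR-485-3p remained called when any 1 of the 4 libraries was left out, with adjusted p between 0.0283 and 0.0688, so that 0 of the 30 were then called. Whether the reads of ES-2 replicate 2 came from another library was not tested.

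The lines shared most of their abundant miRNAs. A miRNA was counted as abundant when its mean reached 1000 library CPM in each line. These 52 miRNAs held 95.4% of miRNA reads in ES-2 and 93.5% in MV-3, and 7 of the 10 most abundant were the same in both lines, namely let-7a-5p, let-7i-5p, miR-21-5p, miR-92a-3p, miR-100-5p, miR-221-3p and miR-222-3p. Ranks 6, 8 and 10 of ES-2 were instead held by miR-30a-5p, miR-29a-3p and let-7f-5p, and miR-23a-3p, miR-30d-5p and miR-24-3p were in the list of MV-3 only. Abundance in both lines did not mean equality, since 31 of the 52 (59.6%) were called, 12 higher and 19 lower in MV-3. The count was 28 by library size only, 17 higher and 11 lower, so the balance of directions turned with the scaling.

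Equality was read from the 95% interval of the fold change and not from a missed threshold. In 30 of the 52 (57.7%, against 21% of all 528 tested) the whole interval lay within 2-fold, and in 16 within 1.5-fold. Of the 30, 13 were nonetheless called, so that they differed by less than 2-fold, and 17 were not. By library size only 30 were within 2-fold as well, and 26 were so under both scalings. These shares depend on the width of the intervals as well as on the fold change. They also depend on the selection, since the limit in each line keeps out miRNAs that are low in 1 line. Examples by mean library CPM are miR-27b-3p (807 in ES-2, 7808 in MV-3) and miR-224-5p (1078 in ES-2, 5.25 in MV-3). The share of 57.7% is thus no measure of how alike the lines are.

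The interval that reached least far from 0 was that of miR-454-3p, a member of the miR-130/miR-301 seed family, with 1408 and 1319 normalised CPM in ES-2 and 1298 and 1463 in MV-3 (log2 fold change 0.02, 95% interval -0.25 to 0.28). It was followed by miR-93-5p, of the miR-106b-25 cluster, at 4759 and 5344 in ES-2 and 4715 and 5535 in MV-3 (-0.25 to 0.29), and by miR-128-3p, abundant in brain, at 1905 and 1976 in ES-2 and 2189 and 1989.8 in MV-3 (-0.12 to 0.33). miR-21-5p, an oncogenic miRNA in an exon of VMP1 and the most abundant miRNA of both lines, measured 325786 and 318640 in ES-2 and 288099 and 272993 in MV-3 (-0.20, 95% interval -0.33 to -0.07, adjusted p = 0.0315). By library size only its sign turned, to 0.24, and it was called (adjusted p = 0.00303).

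miR-191-5p, often used as a reference miRNA, measured 2734 and 2901 in ES-2 and 2734 and 2541 in MV-3 (-0.33 to 0.14). miR-16-5p, which restrains cyclins and BCL2, measured 3550.1 and 3753 in ES-2 and 3042 and 3307 in MV-3 (-0.38 to -0.02), and miR-7-5p, a repressor of EGFR signaling, 3430.0 and 3203 in ES-2 and 3241 and 3852 in MV-3 (-0.22 to 0.40). For the last the values of the lines interleave. miR-182-5p, miR-101-3p, which targets EZH2, and miR-320a, which is made without Drosha, completed the 10 with intervals of -0.08 to 0.42, -0.44 to 0.15 and -0.26 to 0.45. The intervals of these 10 lay within 1.5-fold of equality, and by library size only their values ranged from 0.24 to 0.61, all above 0. By that scaling limma called miR-128-3p (0.55, adjusted p = 0.00252) and miR-182-5p (0.61, adjusted p = 0.00261) higher in MV-3, as it did miR-21-5p.

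At the other end, 8 abundant miRNAs had intervals wholly beyond 2-fold. Those lower in MV-3 were miR-10a-5p, miR-30a-5p, miR-155-5p, miR-30c-5p and let-7g-5p, and those higher were miR-24-3p, miR-92b-3p and miR-99b-5p, each with its values above except let-7g-5p, which measured 17715 and 18406 in ES-2 and 7356 and 7597 in MV-3. Another 4 had wide intervals and were not called, so neither a difference nor equality was shown. These were let-7i-5p (-1.57 to 0.03), let-7b-5p (-1.89 to -0.24), miR-199a-3p (0.07 to 1.16) and miR-199b-3p (-0.53 to 1.73).

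**Figure D5:**
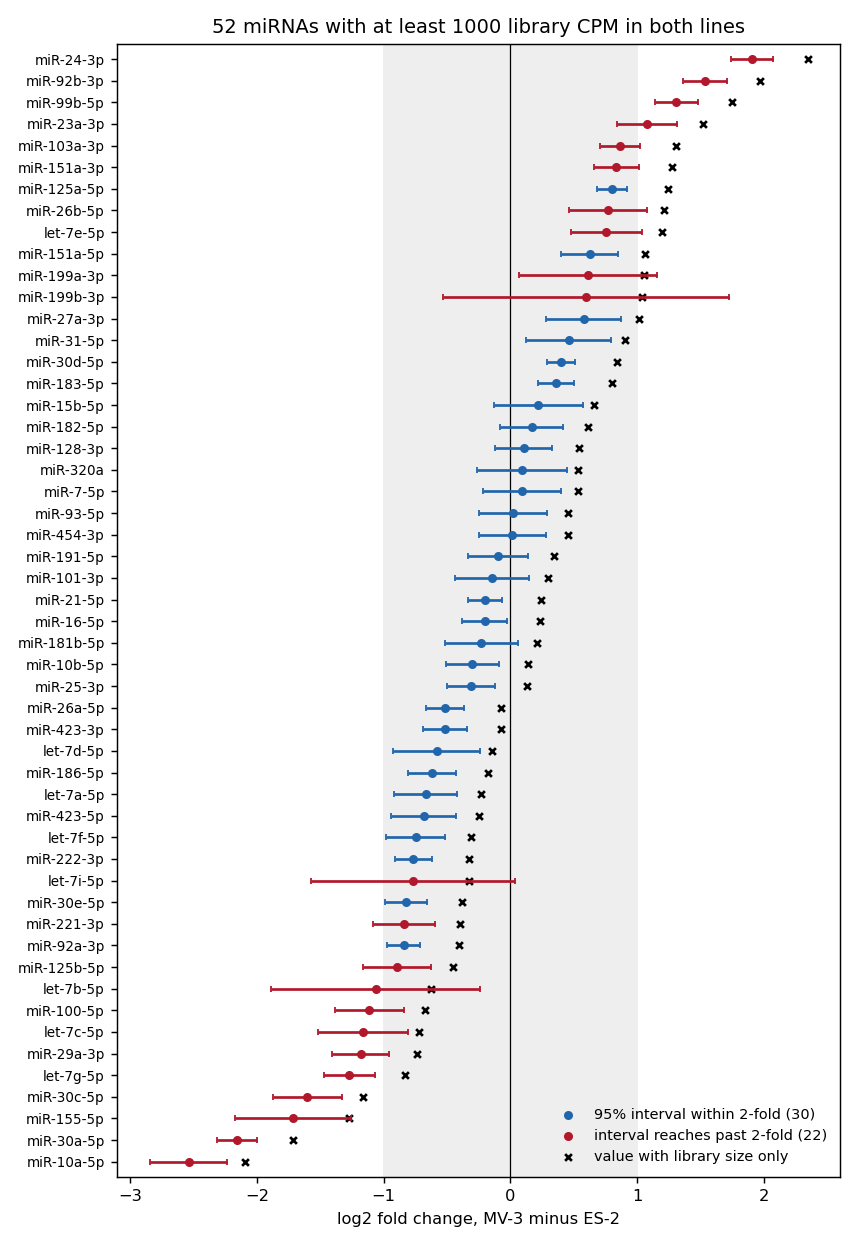
Log2 fold change of MV-3 over ES-2 with 95% limma interval for the 52 miRNAs with at least 1000 library CPM in both lines, ordered by value; grey shading marks 2-fold in either direction and crosses the value by library size only. Blue marks the 30 miRNAs whose interval lies within 2-fold, with miR-454-3p, miR-93-5p and miR-128-3p at the center, and red the other 22, from miR-24-3p at the top to miR-10a-5p at the bottom.

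Finally, the balance of the arms within a hairpin was compared, which does not depend on the scaling between libraries. Arms were paired by name, so where a name has several loci, as let-7a-5p with 3, the ratio can mix hairpins. Among 45 hairpins with at least 20 library CPM on both arms in both lines, the 5p to 3p ratio was called for 5 (11.1%), and all 5 ratios were lower in MV-3. The 5p arm of miR-25 took 5.75% and 6.75% of the hairpin's reads in ES-2 and 1.83% and 2.15% in MV-3 (log2 change of the ratio -1.69 ± 0.21, adjusted p = 0.000144, limma). For miR-99b it took 94.3% and 91.8% in ES-2 and 82.7% and 83.7% in MV-3 (-1.46 ± 0.17, adjusted p = 0.000144). For miR-93, a neighbour of miR-25 in MCM7, it took 99% and 99.2% in ES-2 and 96.5% and 97.9% in MV-3 (-1.62 ± 0.35, adjusted p = 0.00689). The ratios of miR-30e and miR-15b changed by -0.84 ± 0.13 and -0.87 ± 0.17 (adjusted p = 0.000727 and 0.00485).

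Only the ratios of miR-25 and miR-99b remained called whichever library was left out. That of miR-30e had an adjusted p of 0.0106 without ES-2 replicate 2, that of miR-15b one of up to 0.0518 without any library other than ES-2 replicate 1 and that of miR-93 one of up to 0.0650 without any library other than MV-3 replicate 2. The lower 5p share was not limited to the called hairpins. In 37 of the 45 the ratio was lower in MV-3, with a median change of -0.38 on the log2 scale. The median log2 ratio of a library was 0.928 and 0.851 in ES-2 and 0.540 and 0.665 in MV-3, while the Huh-7 libraries had 0.868 and 0.551 and those of A-549 0.787 and 0.643. Libraries of 1 line thus differed by up to the size of the change between the lines, and a bias of single libraries cannot be told apart from a difference between MV-3 and ES-2 in this general shift. miR-93-5p and miR-25-3p, the main arms of the hairpins named above, were among the miRNAs within 2-fold, and the change lay in the minor arms, with miR-25-5p at 187 and 221 normalised CPM in ES-2 and 48.9 and 51 in MV-3 and miR-93-3p at 48.6 and 42.6 in ES-2 and 171 and 121 in MV-3.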

How the data were processed

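Small RNA libraries of total RNA (NEXTflex Small RNA kit, Illumina HiSeq) were made from each of 4 lines, 2 per line, of which MV-3 and ES-2 are compared. Per the labels and the methods of the study, the authors trimmed reads with cutadapt 1.14, aligned them with Bowtie2 2.3.2 to GRCh38, counted them on miRBase mature miRNAs with featureCounts 1.5.3 and normalised them by TMM with edgeR 3.18.1. How reads with several alignments, strand or the random adapter bases of the kit were treated is not given in the sources used here. The deposited values are a normalised signal, TMM-scaled CPM. Division by the smallest value of a library gave whole reads for all values, within 0.001.

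The 2813 entries were summed to 2588 names, and 528 passed edgeR's filterByExpr on recovered reads. limma 3.58.1 (R 4.3.3) was run on log2(normalised CPM + 1) over all 8 libraries, with 1 term per line, a mean-dependent prior variance, 4 residual degrees of freedom, two-sided tests and Benjamini-Hochberg adjustment over all features tested. For a single value, an exact permutation test of 2 against 2 libraries cannot reach 0.05. Log2 fold changes, to which the p-values belong, are on the log2(value + 1) scale, which understates changes of low miRNAs. Values given as x-fold are ratios of mean normalised CPM without the added 1, or lower bounds where marked as at least. Ratios with a counting interval are ratios of scaled reads. Seed families were summed over identical bases 2 to 8 and clusters over hairpins within 10 kb on 1 strand at their RefSeq positions. Arm ratios were log2((5p + 1)/(3p + 1)). Host genes and positions of single hairpins were taken from the GENCODE annotation (release 44). A count of 0 was set to 3 reads for lower bounds of a fold, and counting intervals and floors cover counting error only. Where single miRNAs are described, they are the 10 largest increases and decreases among miRNAs that reached a mean of 100 library CPM, the 10 most abundant of each line, the 10 abundant miRNAs with the interval closest to 0, list members chosen by level, and the 5 largest changes among families and clusters. Beyond that rule, minor arms, low members of named clusters, markers and single miRNAs that a count turned on were named after their values were seen. The members and lists were chosen with earlier results of these data known.

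Replicate libraries of a line differed by more than sampling noise (chi-square per degree of freedom 8.53 in ES-2 and 13.4 in MV-3). On simulated counts for the 528 miRNAs with 200 changed 4-fold, the test recovered 72% of the changed miRNAs (92.1% of 140 whose mean reached 10 CPM), with 0 in the wrong direction and 1 call among unchanged miRNAs. Alternatives were other scalings, filters, pseudocounts and thresholds, a fit of the 4 libraries alone, the replicate number as a block, each library left out, entries kept apart, edgeR 4.0.16 and DESeq2 1.42.0 on the recovered reads.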

Additional observations from a re-analysis of the deposited data

How the results depend on the processing

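The 136 calls became 94 to 102 when 1 library was left out, and 123 to 157 under the other scalings, filters, pseudocounts and tools, with 154 among entries kept apart, 188 at an adjusted p below 0.05 and 108 with a minimum log2 fold change of 1. Lower calls (75) were 49 to 60 with 1 library left out. Abundant miRNAs within 2-fold (30) were 16 at a limit of 1.5-fold and 62 from 100 library CPM. Seed families (19) were 11 with a minimum log2 fold change of 1. Arm ratios (5) were 11 without a filter, 9 with a filter of 10 CPM, 11 with a pseudocount of 5, 11 in the fit of the 4 libraries, 13 at an adjusted p below 0.05, 3 with a minimum log2 fold change of 1 and 2 to 5 with 1 library left out. The cause was not tested, other than the stricter or looser limit itself. With the replicate number as a block, 129 miRNAs were called, 125 of them among the 136. Equal numbers did not pair MV-3 with ES-2, since the deviations of their equally numbered libraries correlated at -0.00479 across 387 miRNAs. ES-2 and Huh-7 correlated at 0.356, and the other pairs of lines lay between -0.00978 and 0.0501. Why ES-2 and Huh-7 did so was not tested. Among single miRNAs, the sign turned by library size only for miR-21-5p (0.24), miR-191-5p (0.34), miR-16-5p (0.24), miR-101-3p (0.30), miR-10b-5p (0.14) and miR-30b-5p (0.38). It turned with RLE factors for miR-454-3p (-0.014) and miR-93-5p (-0.012), with DESeq2 for both (-0.0091 and -0.0062) and for miR-204-5p (-0.13), and with edgeR for miR-204-5p (-0.17). With 1 library left out the sign also turned for miR-454-3p (-0.070 to 0.10), miR-93-5p (-0.097 to 0.13), miR-7-5p (-0.032 to 0.22), miR-204-5p (-0.65 to 1.19) and miR-30b-5p (-0.22 to 0.11). Of these miRNAs only miR-21-5p by library size only passed the test. A fit with 1 library of a line assumes that it varies like the other lines. Reads of 3 or fewer, or 1.54 to 2.22 normalised CPM, limit what can be seen in a library.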
